A study of Mus musculus with 2 samples.

Results

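Immediate early genes are genes that cells switch on within minutes of a stimulus, before any new protein is made, and many of them also respond when tissue is cut up and digested into single cells. A set of 31 such genes was followed through a single-cell RNA sequencing experiment on the mouse inner ear. Members were taken by gene symbol, 1 row each, and make up 31 of the 32285 genes in the count tables. They are the AP-1 genes Fos, Fosb, Fosl2, Jun, Junb and Jund, the related leucine zipper genes Atf3, Maff, Cebpb and Cebpd, and the EGR genes Egr1, Egr2 and Egr3. Further members are the Krüppel-like genes Klf2, Klf4 and Klf6, the nuclear receptors Nr4a1, Nr4a2 and Nr4a3, Myc, and the feedback inhibitors Dusp1, Dusp2, Zfp36, Btg2, Socs3, Ppp1r15a and Gadd45b. Ier2, Ier3, Ier5 and the matrix gene Ccn1 complete the set. All 31 were detected in both libraries.

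The tissue came from wild-type CBA/CaJ mice aged 4 to 6 weeks and was labelled sensory epithelium. Every animal was exposed to noise of 105 dB at 1 to 20 kHz for 2 h, and tissue was dissected 2 days afterwards. In the AAV_Isl1_noise group the ear had been given an adeno-associated virus carrying Isl1 (AAV-Isl1), the gene of a LIM homeodomain transcription factor. The noise_only group was the untreated opposite ear of the same animals. Each group was 5 mice pooled into 1 library, with no control that had neither noise nor a treated opposite ear. Both groups therefore share the noise and the digestion with trypsin.

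The products of these genes fall into a chain. FOS and JUN proteins pair to form AP-1, a transcription factor that binds many promoters and enhancers, and EGR, KLF and NR4A proteins are transcription factors of their own families. Dusp1 and Dusp2 encode phosphatases that switch off MAP kinases, Zfp36 encodes a protein that marks short-lived messages for decay, and Socs3 encodes an inhibitor of cytokine signalling. Some members have standing roles as well: Egr2 drives peripheral myelination in Schwann cells, and Klf2 and Klf4 are maintained in endothelium by blood flow.

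The libraries held 38330528 UMIs (unique molecular identifiers, each tagging a single captured molecule) in 21068 barcodes for noise_only and 40268563 UMIs in 24209 barcodes for AAV_Isl1_noise. These are far more barcodes than the about 1600 cells loaded, and the libraries share 145 barcodes. After filtering, 18743 and 21874 barcodes, called cells here, were kept, with medians of 1048 and 1086 UMIs. Clustering without the member genes gave 38 clusters. From markers, 21 were named as 16 classes, and 14 classes had at least 90 cells in each library and were compared. The named classes hold 83.5% and 78.5% of kept cells. Hair cell-like cells were 0.502% and 1.57% of kept cells, so the labelled sensory epithelium is mostly other tissue here. Levels are UMIs per 1000000 UMIs of a class, written CPM, and since UMIs are counted at the 3′ end, gene length does not enter. Intervals are 95% and cover counting error only. With 1 library per group no difference has a replicate check, and no p-value is given.

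Promoter sequence is shown for 3 members that stand for the patterns in the data: Fos, the member with the most UMIs, Btg2, a feedback gene found with it, and Egr2, the member with a level restricted to myelinating Schwann-like cells. Each is the 250 bases before an annotated transcript start in RefSeq (GRCm38.p6), 5′ to 3′ on the gene's strand, outside any annotated exon of GENCODE vM21. The windows are chr12:85473640-85473889 (plus strand) for Fos, chr1:134079156-134079405 (minus strand) for Btg2 and chr10:67537619-67537868 (plus strand) for 1 of the 5 Egr2 starts. Capitals mark a TATA box in Fos, a cyclic AMP response element in Btg2 and a CArG box, the binding sequence of serum response factor, in Egr2.
Fos: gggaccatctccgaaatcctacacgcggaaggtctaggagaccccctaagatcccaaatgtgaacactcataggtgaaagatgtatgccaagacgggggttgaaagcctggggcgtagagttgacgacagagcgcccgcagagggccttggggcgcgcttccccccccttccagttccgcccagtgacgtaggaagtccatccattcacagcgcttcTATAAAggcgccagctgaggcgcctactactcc
Btg2: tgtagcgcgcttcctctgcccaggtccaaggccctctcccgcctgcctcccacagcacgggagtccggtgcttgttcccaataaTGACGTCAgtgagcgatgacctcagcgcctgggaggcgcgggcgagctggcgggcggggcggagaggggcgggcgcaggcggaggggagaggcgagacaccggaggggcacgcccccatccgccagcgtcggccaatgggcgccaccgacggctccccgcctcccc
Egr2: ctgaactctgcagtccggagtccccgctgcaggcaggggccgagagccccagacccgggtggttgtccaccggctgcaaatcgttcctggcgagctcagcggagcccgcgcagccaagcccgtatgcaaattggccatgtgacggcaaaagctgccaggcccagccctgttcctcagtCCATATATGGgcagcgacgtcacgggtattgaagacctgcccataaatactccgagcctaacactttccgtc

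RefSeq promoters matched 26 of the 31 members. On either strand, the cyclic AMP response element TGACGTCA was found within 250 bases of a start in 4 of these 26 members (15.4%: Maff, Dusp1, Btg2 and Ppp1r15a) and in 1.77% of 27025 genes. A CArG box was found in 2 members (7.69%: Egr2 and Zfp36) and in 1.62% of all genes. The EGR site GCGTGGGCG was found in 1 member, Maff (3.85%, against 0.622%), and TATAAA in 4 members (15.4%, against 14.3%). The AP-1 site TGACTCA was found in 0 of 26 members and in 5.16% of all genes. These are letter matches in short windows and say nothing of binding.

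Fos had the highest level of any member over all kept cells, at 3991 CPM in noise_only and 2936 CPM in AAV_Isl1_noise, followed by Junb, Jun and Egr1 in noise_only and by Jun, Junb and Egr1 in AAV_Isl1_noise. The 31 genes together made up 1.79% of all UMIs in the noise_only library and 1.35% in the AAV_Isl1_noise library. Their summed level differed widely between classes. In the noise_only library it was 49084 CPM in non-myelinating Schwann or satellite glia-like cells, 42098 CPM in pericyte or smooth muscle-like cells and 31428 CPM in endothelial-like cells. The first place of the non-myelinating glia-like class, here and for single members below, rests on shallow cells. Its 294 noise_only cells under 1000 UMIs held 58682 CPM, and its 44 cells of 1000 to 2000 UMIs held 22586 CPM. At that greater depth pericyte or smooth muscle-like cells held 47633 CPM and endothelial-like cells 28922 CPM. At the other end the summed level was 1863 CPM in neuron-like cells, 3161 CPM in stria marginal cell-like cells and 3595 CPM in hair cell-like cells. The order of classes was much alike in both libraries: across 14 classes, Spearman's rho between the libraries ran from 0.808 (Nr4a3) to 0.982 (Ier3) per member, as a description of 14 points that share depth and cell calls. For 22 of 31 members the class with the highest level was the same in both libraries.

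**Figure D1:**
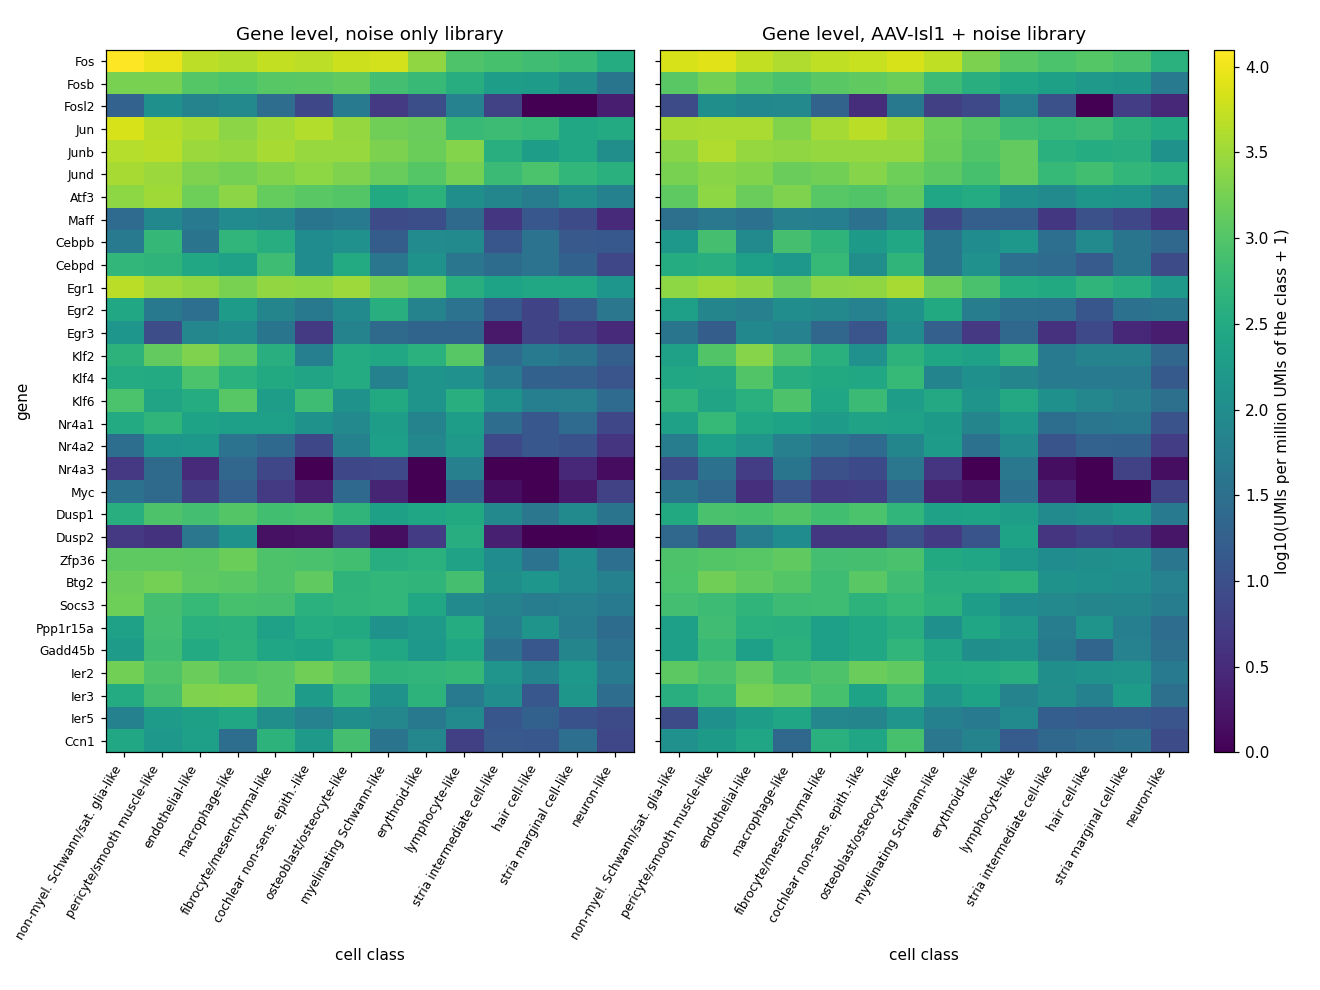
Level of each of the 31 genes (rows) in each of the 14 classes (columns), as log10 of CPM plus 1, in the noise_only library (left) and the AAV_Isl1_noise library (right). Fos, Jun, Junb, Jund and Egr1 are bright in most columns, and Fosl2, Dusp2, Nr4a3 and Myc are dark outside a few classes. The columns of stria, hair cell-like and neuron-like cells are darker than most, with Fos and Jund still visible in them.

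Erythroid-like cells, in which the hemoglobin genes dominate, were taken as a reference class for RNA that reaches droplets from other cells. They carried 12985 CPM of member UMIs in noise_only and 9418 CPM in AAV_Isl1_noise, at median depths of 2162.5 and 1885.5 UMIs. In stria intermediate cell-like, stria marginal cell-like, neuron-like and hair cell-like cells, 0 of 31 members stood above the erythroid level in both libraries, and 24, 22, 25 and 18 members stood below it. The erythroid level is thus no floor of free RNA common to all classes, and standing above it is a comparison with that class only. Levels in these 4 classes alone do not separate the cells' own message from free RNA. The source of the UMIs, in these classes and in erythroid-like cells, was not tested. Per cell the picture is the same, with 18.2 member UMIs per neuron-like cell and 6.50 per hair cell-like cell against 31.2 per erythroid-like cell in noise_only. The mixture of members was not the same in every class: Jund stood at 395 CPM and Fos at 342 CPM in noise_only neuron-like cells, whereas Jund stood at 1038 CPM and Fos at 2641 CPM in erythroid-like cells. In 1 of the 2 neuron-like clusters, cluster 17, Jund had 385 CPM and Fos 171 CPM. Above the erythroid level in both libraries were 28 members in macrophage-like and in pericyte or smooth muscle-like cells, 27 in endothelial-like, 23 in fibrocyte or mesenchymal-like, 21 in osteoblast or osteocyte-like, 18 in non-myelinating glia-like, 17 in cochlear non-sensory epithelium-like, 12 in myelinating Schwann-like and 9 in lymphocyte-like cells.

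Among the AP-1 genes, Fos led. In noise_only its level was lowest in neuron-like cells (342 CPM), had a median of 4589 CPM over the 14 classes and was highest in non-myelinating glia-like cells (14454 CPM). In AAV_Isl1_noise the lowest, median and highest were 418, 4579.7 and 8364 CPM, the last in pericyte or smooth muscle-like cells. Fosb was lower throughout its range, with a highest level of 1876 and 1682 CPM, both in pericyte or smooth muscle-like cells. Fosl2 was different in kind. It stood at 115 and 108 CPM in pericyte or smooth muscle-like cells, 84.4 and 82.7 CPM in macrophage-like cells and 67.7 and 81.9 CPM in endothelial-like cells, and at 0 UMIs in hair cell-like cells of both libraries. The pericyte or smooth muscle-like class joins cluster 10, led by Kcnj8, and cluster 15, led by Myh11. Fosl2 had 46.1 and 35.9 CPM in cluster 10 and 169 and 176 CPM in cluster 15. Jun was highest in noise_only non-myelinating glia-like cells at 7011 CPM, and at 4719 CPM in the AAV_Isl1_noise cochlear non-sensory epithelium-like class. Junb reached 4691 and 4064 CPM in pericyte or smooth muscle-like cells. It was also the leading member in lymphocyte-like cells of the noise_only library, at 2157 CPM, where Fos had only 929.6 CPM. Jund, the JUN gene that is on in most resting cells, had the narrowest spread of these genes, from 395 to 3684 CPM in noise_only and from 393 to 2329.6 CPM in AAV_Isl1_noise.

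The other leucine zipper genes were each strongest in stromal, vascular or myeloid cells. Atf3, a stress-induced repressor and activator, reached 3279.6 and 2497 CPM in pericyte or smooth muscle-like cells and 2429 and 2053 CPM in macrophage-like cells. Within the first class it had 1412 and 1312 CPM in cluster 10 and 4744 and 3604 CPM in cluster 15. Cebpb, a factor of myeloid cells and of the acute phase response, stood at 536 and 791 CPM in pericyte or smooth muscle-like cells and at 502 and 772 CPM in macrophage-like cells. Cebpd, its relative, met the rule for restriction in fibrocyte or mesenchymal-like cells alone, at 665 and 561 CPM, against a median class of 113 and 111 CPM. Within that class it had 1026 and 995 CPM in cluster 1 but 138 and 202 CPM in cluster 6. Cebpd and Ccn1 were among the leading genes of 1 fibrocyte-like cluster, so their high level there also describes the cluster. Maff stayed under 100 CPM in all 14 classes, with 95.02 CPM in noise_only macrophage-like cells and 72.0 CPM in AAV_Isl1_noise osteoblast or osteocyte-like cells as its highest levels.

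Egr2 was highest in the glia. It lies at chr10:67535475-67542188 on the plus strand (GRCm38), and its promoter is the third sequence above. Myelinating Schwann-like cells had 376 CPM in noise_only and 304 CPM in AAV_Isl1_noise, 8.39 and 4.93 times the median class. Non-myelinating glia-like cells came second with 282 and 202 CPM, and macrophage-like cells had 174 and 99.9 CPM. The myelinating cells stood above macrophage-like cells beyond counting error in both libraries, whereas the interval of the non-myelinating cells lay just under theirs in noise_only (222 to 353 against 359 to 393 CPM) and overlapped theirs in AAV_Isl1_noise (132 to 296 against 285 to 324 CPM). Egr1, a stimulus-driven gene in nearly every cell type, was not restricted to any class: its median class stood at 1849 and 1489 CPM, and myelinating Schwann-like cells were close to that at 1801 and 1497 CPM. Egr3 reached 141 CPM in noise_only non-myelinating glia-like cells and 100.3 and 65.5 CPM in macrophage-like cells, the class in which it met the rule for restriction.

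The KLF genes split by cell type. Klf2 stood at 1993 and 2240.5 CPM in endothelial-like cells, 5.58 and 9.27 times the median class, with pericyte or smooth muscle-like cells second at 1301 and 987 CPM and neuron-like cells lowest at 16.3 and 21.7 CPM. In that second class Klf2 had 427 and 382 CPM in cluster 10 and 1987 and 1552 CPM in cluster 15. Klf4 was also highest in endothelial-like cells, at 866 and 979 CPM. Klf6, a gene of injury responses, was highest in macrophage-like cells at 1092 and 891 CPM and met the rule for restriction in no class. The nuclear receptors were scarcer. Nr4a1 was highest in pericyte or smooth muscle-like cells at 476 and 550.0 CPM. Nr4a2 reached 203 and 176 CPM in myelinating Schwann-like cells and 143 and 203 CPM in pericyte or smooth muscle-like cells, where it was restricted. In the latter it had 35.9 and 80.3 CPM in cluster 10 and 228 and 318 CPM in cluster 15. Nr4a3 and Myc were scarce. Nr4a3 had its highest level in lymphocyte-like cells, 60.6 and 42.2 CPM, and Myc in non-myelinating glia-like cells, 33.4 and 38.8 CPM.

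Of the feedback inhibitors, Dusp2 was the most selective member of the set. It stood at 359 and 242 CPM in lymphocyte-like cells, 123 and 97.9 CPM in macrophage-like cells and 41.0 and 51.2 CPM in endothelial-like cells, against a median class of 2.16 and 6.43 CPM. Its relative Dusp1 was broad, with a median class of 352 and 274 CPM and highest levels of 1005 and 971 CPM in macrophage-like cells. Zfp36 was highest in the same class at 1494 and 1252 CPM. Btg2, an inhibitor of proliferation, reached 1734 and 1610.2 CPM in pericyte or smooth muscle-like cells, and so did Ppp1r15a (744 and 695 CPM), which reverses the translation block of the stress response, and Gadd45b (692 and 587 CPM), a stress sensor. Socs3 was highest in non-myelinating glia-like cells, at 1578 and 745 CPM. The 3 Ier genes differed: Ier2 was broad with a median class of 739 and 548 CPM, Ier3 was restricted to macrophage-like (2125 and 1399 CPM) and endothelial-like cells (2037 and 1725 CPM), and Ier5 was highest in macrophage-like cells at 285 and 252 CPM. Ccn1, a secreted matrix protein, was highest in osteoblast or osteocyte-like cells (781 and 814 CPM) and next in fibrocyte or mesenchymal-like cells (452 and 396 CPM).

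**Figure D2:**
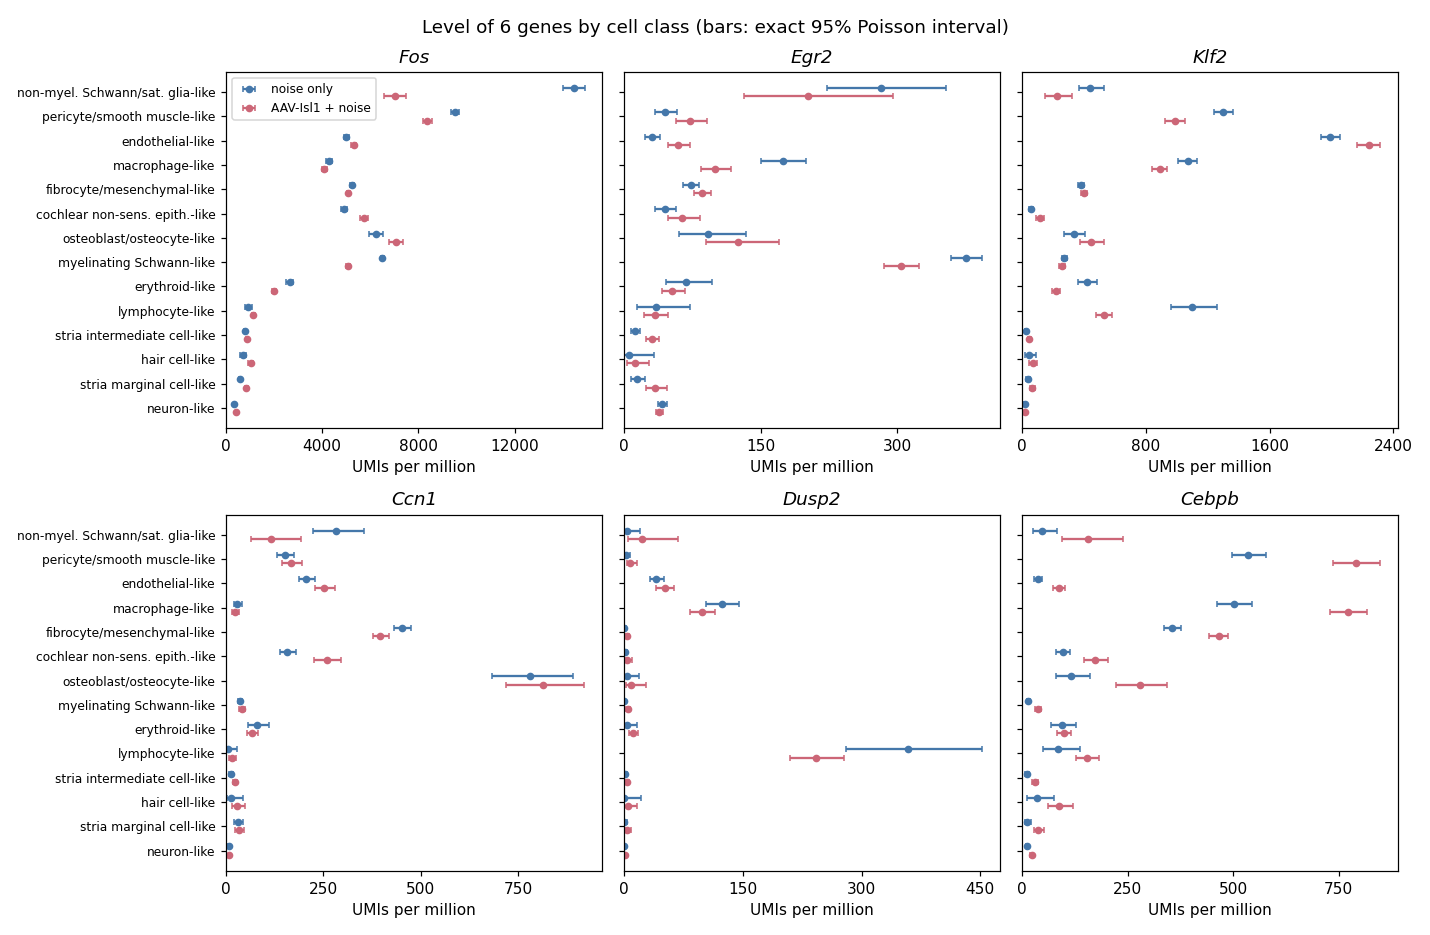
CPM of 6 genes (panels) in the 14 classes (rows), blue for noise_only and red for AAV_Isl1_noise, with exact 95% Poisson intervals as bars. Fos is spread over many classes, whereas Egr2 peaks in myelinating Schwann-like cells (376 and 304), Klf2 in endothelial-like cells (1993 and 2240.5), Ccn1 in osteoblast or osteocyte-like cells and Dusp2 in lymphocyte-like cells. The red points of Cebpb lie to the right of the blue ones in every row.

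A member was called restricted in a class where its level was at least 4 times the median of the 14 classes in each library, with at least 20 UMIs in each. By this rule 13 members were restricted in 1 or more classes, in 21 member and class pairs, and 18 members were restricted in none. At 8 times the median, 4 pairs were left: Fosl2 in pericyte or smooth muscle-like cells, Dusp2 in macrophage-like and in lymphocyte-like cells, and Ccn1 in osteoblast or osteocyte-like cells. Macrophage-like cells held 6 restricted members (Fosl2, Cebpb, Egr3, Nr4a3, Dusp2 and Ier3), pericyte or smooth muscle-like cells 5 (Fosl2, Cebpb, Nr4a2, Nr4a3 and Myc) and endothelial-like cells 5 (Fosl2, Klf2, Klf4, Dusp2 and Ier3). Within the pericyte or smooth muscle-like class, Fosl2, Cebpb, Nr4a2 and Nr4a3 were higher in cluster 15, led by Myh11, and Myc in cluster 10, led by Kcnj8. Fos, Fosb, Jun, Junb, Jund, Egr1, Atf3, Ier2, Btg2, Zfp36 and Dusp1 were among the 18 that were broad.

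Whether a member accompanies Fos in the same cell separates the members further. Each cell was thinned to 1000 UMIs, which left out cells below that depth. In noise_only myelinating Schwann-like cells, Egr1 was found in 74.2% of the 767 cells with a Fos UMI and in 7.14% of the 294 without one. Zfp36 (33.2% and 1.70%) and Jun (71.2% and 11.9%) showed the same contrast. Egr2 was found in 33.5% (30.2% to 37.0%) against 15.3% (11.4% to 19.9%), and Jund in 73.8% against 35.4%. Such a narrower contrast was not particular to these genes: Klf6 was found in 30.1% against 12.6%, Gadd45b in 23.99% against 9.52%, Ppp1r15a in 11.5% against 6.46% and Ier5 in 8.21% against 4.76%. The AAV_Isl1_noise library gave 27.2% against 16.4% for Egr2 and 73.4% against 11.9% for Egr1. In erythroid-like cells Egr2 was found in 3.57% and 3.84% of thinned cells, far under the 28.5% and 24.8% in myelinating Schwann-like cells. The gap between cells with and without a Fos UMI was thus narrower for Egr2 than for Egr1 in both libraries, although UMI counts this low miss many messages.

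Endothelial Klf2 was also frequent in cells without a Fos UMI. It was found in 76.0% of noise_only endothelial-like cells with a Fos UMI and in 38.7% of those without, and in 77.7% and 39.7% in AAV_Isl1_noise. Klf4 was found in 54.9% and 28.7% in noise_only, whereas Atf3 in the same cells was found in 57.5% and 10.0%. In lymphocyte-like cells the intervals of Dusp2 with and without Fos overlapped: it was found without Fos in 25.5% (14.3% to 39.6%) and with Fos in 15.6% (5.28% to 32.8%) of noise_only cells, and in 15.9% and 18.8% in AAV_Isl1_noise. Cebpb in macrophage-like cells was found in 27.7% (17.3% to 40.2%) without and 38.6% (33.4% to 44.0%) with Fos in noise_only, again with overlapping intervals. Cebpd in the pooled fibrocyte or mesenchymal-like class was found in 38.7% of noise_only cells with a Fos UMI and in 5.68% of those without. Both genes differed between its clusters in noise_only. Fos and Cebpd had 7716 and 1026 CPM in cluster 1, 3429 and 518 CPM in cluster 20, and 2387 and 138 CPM in cluster 6. Whether Cebpd goes with Fos within a cluster was not tested. Ccn1 in osteoblast or osteocyte-like cells was found in 47.4% with and 14.3% without. With so few cells in these comparisons, overlapping intervals do not show that a gene is independent of Fos.

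The share of cells carrying several core genes shows how widely the program ran. Core genes were Fos, Jun, Junb, Egr1, Ier2, Btg2, Atf3, Zfp36 and Dusp1. In thinned noise_only cells, 92.2% of pericyte or smooth muscle-like cells had at least 3 of these 9 genes, as did 89.7% of macrophage-like, 83.0% of cochlear non-sensory epithelium-like, 82.4% of endothelial-like and 77.6% of fibrocyte or mesenchymal-like cells. In AAV_Isl1_noise myelinating Schwann-like cells the share was 68.5% although their CPM was lower, so no order between the libraries is read from these shares. The noise_only share was 63.4% in myelinating Schwann-like, 62.0% in non-myelinating glia-like (50 cells) and 53.6% in erythroid-like cells. It was 17.2% in stria intermediate cell-like, 15.9% in hair cell-like, 14.9% in stria marginal cell-like and 9.55% in neuron-like cells. Over all kept cells the shares were 61.4% and 56.2%, and without thinning they were 62.5% and 63.5%. When thinned, the share in the last 4 classes lay under that of erythroid-like cells, in which 28.0% and 27.6% had none of the 9 genes. Without thinning, neuron-like cells, the deepest class, were at 58.1% and 56.7% and erythroid-like cells at 60.5% and 56.8%, so the low place of neuron-like cells holds at equal depth alone. In erythroid-like cells the core genes also went together, with Egr1 in 67.3% of noise_only cells with a Fos UMI and 9.84% of those without. Whether these cells hold RNA of a second cell was not tested.

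**Figure D3:**
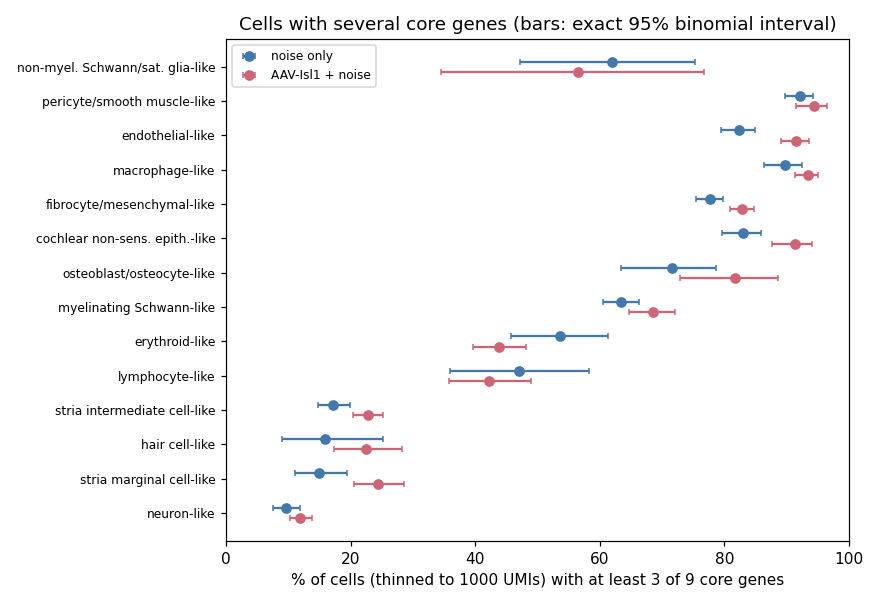
Percentage of cells, each thinned to 1000 UMIs, with at least 3 of the 9 core genes (x axis) in the 14 classes (rows), blue for noise_only and red for AAV_Isl1_noise, with exact 95% binomial intervals. Vascular, stromal, epithelial and macrophage-like classes lie above 70%, and stria, hair cell-like and neuron-like classes lie under 30%.

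Between the libraries, a member was called higher or lower in AAV_Isl1_noise in a class where it had at least 50 UMIs over both libraries, a ratio at least 1.5-fold from 1 and a counting interval without 1. The UMI limit is on both libraries together, so a scarce member can pass it through the library in which it is higher. Of 434 member and class pairs, 350 had enough UMIs. Of these, 37 were called higher (10.6%) and 36 lower (10.3%). Over all genes and the same classes, 4.46% of 80349 pairs were called higher and 2.31% lower. That background holds genes of all levels, and the part of gene level in these shares was not tested. The members' shares are given beside it without a test.

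**Figure D4:**
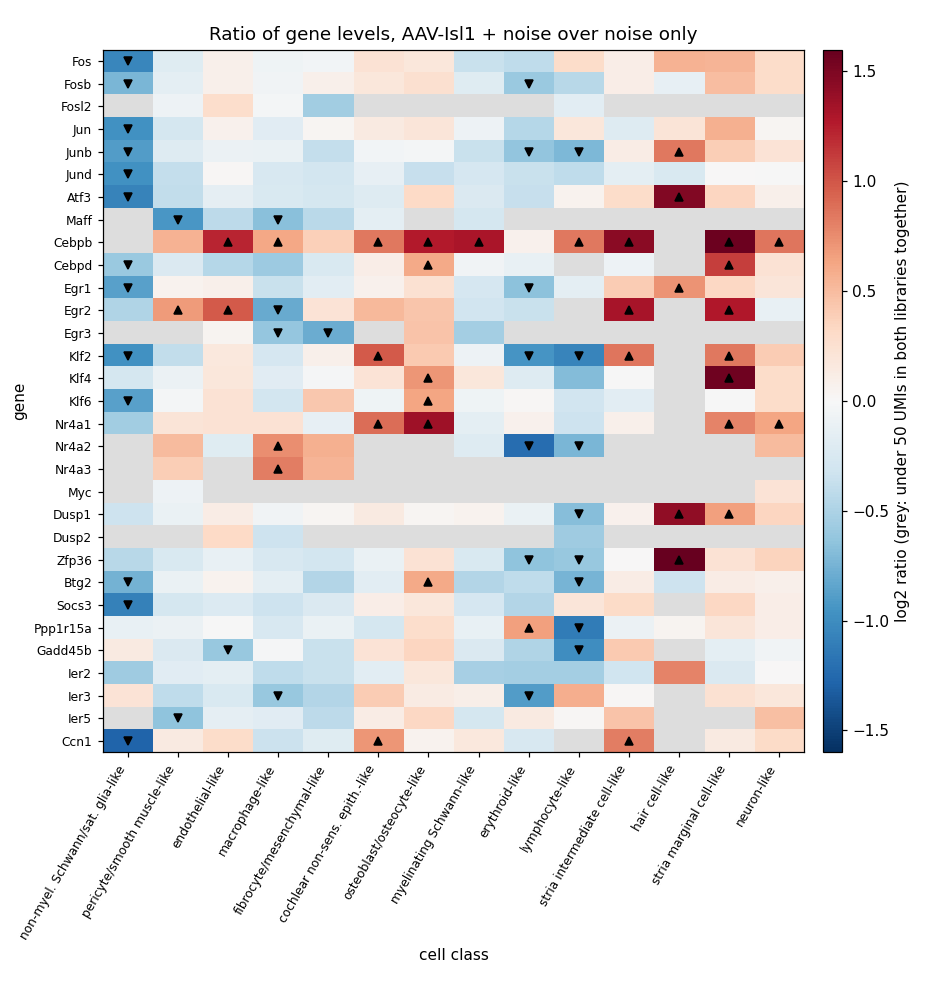
Log2 ratio of the level in AAV_Isl1_noise over noise_only for each of the 31 genes (rows) in each of the 14 classes (columns), red for higher and blue for lower, grey where fewer than 50 UMIs were counted. Triangles mark the 37 pairs called higher (pointing up) and the 36 called lower (pointing down), which gather in the non-myelinating glia-like, erythroid-like and lymphocyte-like columns for lower, and along the Cebpb row for higher.

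Summed over the 31 genes, the ratio lay under 1 in 7 classes. It was lowest in non-myelinating Schwann or satellite glia-like cells, 0.544 (0.524 to 0.565), where 13 of 22 measured members were called lower and 0 higher, against 10.3% of all genes called lower and 8.90% called higher in that class. Fos there had 14454 CPM in noise_only and 7031 CPM in AAV_Isl1_noise, a ratio of 0.486 (0.452 to 0.523). Ccn1 had the lowest called ratio in that class at 0.412 (0.220 to 0.724), from 76 and 15 UMIs, followed by Socs3 at 0.472 and Atf3 at 0.476. The class is small, 344 and 155 cells, and its cells under 1000 UMIs held 58682 and 33152 CPM of member UMIs while those of 1000 to 2000 UMIs held 22586 and 17617 CPM. Thinned to 1000 UMIs, which keeps 50 and 23 cells, the ratio was 0.654, and Ccn1 (1.45), Atf3 (1.16) and Klf2 (1.09) then stood above 1. With doublets kept or coarser clusters the class was not found as a named class, so these settings give no value for it.

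Erythroid-like cells followed with a summed ratio of 0.725, 7 of 25 measured members called lower (5.69% of all genes) and 1 higher, Ppp1r15a at 1.58 (1.22 to 2.06; 13.6% of all genes). The lowest called ratios there were Nr4a2 at 0.431, Klf2 at 0.520 and Ier3 at 0.536. Erythroid-like cells under 1000 UMIs, 22 and 115 of them, went the other way, with 12595 and 17083 CPM of member UMIs. Those of greater depth did not. This class is also the reference for the levels of the other classes, and its part in their ratios was not tested. In lymphocyte-like cells the summed ratio was 0.747, with 8 of 24 members called lower (9.45% of all genes) and Cebpb called higher (7.19%). The difference varied with depth: lymphocyte-like cells under 1000 UMIs held 13567 and 10584.5 CPM, and those of 1000 to 2000 UMIs held 9025 and 9105 CPM. A further 82 AAV_Isl1_noise cells of 2000 and more UMIs held 6231 CPM. Ppp1r15a had 344 and 158 CPM, a ratio of 0.459. Klf2, which keeps resting T cells in circulation, had 1101 and 529.8 CPM, a ratio of 0.481 (0.408 to 0.569), and Gadd45b a ratio of 0.501. With doublets kept, Gadd45b turned to 1.86 (0.672 to 7.14) on 45 UMIs, and Nr4a2 (0.602) and Dusp1 (0.626), also called lower, turned to 1.27 and 1.35. Fos went the other way in that class, with 929.6 and 1135 CPM and a ratio of 1.22. The class pools T, natural killer and B cells, 188 cells in noise_only and 697 in AAV_Isl1_noise, and its makeup was not compared.

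In the 4 other classes with a summed ratio under 1 the differences were small. The ratio was 0.826 (0.817 to 0.836) in myelinating Schwann-like, 0.872 in macrophage-like, 0.877 in pericyte or smooth muscle-like and 0.896 in fibrocyte or mesenchymal-like cells. In cells under 1000 UMIs the order was reversed in macrophage-like (20022 and 29807 CPM) and pericyte or smooth muscle-like cells (33295 and 36878 CPM). It was kept there in myelinating Schwann-like and fibrocyte or mesenchymal-like cells. In myelinating Schwann-like cells 22 of 27 measured members had a ratio under 1, but 0 were called lower (0.889% of all genes), with Fos at 6503 and 5072 CPM and Egr2 at a ratio of 0.810 (0.749 to 0.876). Cebpb was the only member called higher there (3.22% of all genes). In macrophage-like cells 4 of 30 members were called lower (2.80% of all genes). These were Egr2 at 0.574, Maff at 0.626, Egr3 at 0.652 and Ier3 at 0.659. The same cells had 3 members called higher (4.86%), Nr4a3 at 1.77, Nr4a2 at 1.68 and Cebpb at 1.54. Pericyte or smooth muscle-like cells had Maff at 0.524 and Ier5 at 0.642 called lower (2.74%) and Egr2 at 1.61 called higher (5.11%). The Egr2 ratio was 3.45 (1.83 to 6.87) in cluster 10, on 14 and 39 UMIs, and 1.02 in cluster 15. In fibrocyte or mesenchymal-like cells 1 of 29 members, Egr3 at 0.578, was called lower (1.94%) and 0 higher (3.35%).

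The fibrocyte or mesenchymal-like class joins 3 clusters that differed in level and direction. The cluster led by Inmt and Coch had 42989.9 and 40912 CPM of member UMIs, and the one led by Slc4a11 and Otos had 9491 and 14523 CPM, a ratio of 1.53. The third, led by Fat2 and Kcnk2, had 20252 and 17286 CPM. In the Slc4a11 and Otos cluster Atf3 had 237 and 524 CPM and Jun 1236 and 2332 CPM. A ratio near 1 for the class therefore covers clusters on both sides of 1.

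The summed ratio was close to 1 in endothelial-like cells, 1.01 (0.995 to 1.02). It was above 1 in the non-sensory epithelium of the cochlea, 1.05, and in osteoblast or osteocyte-like cells, 1.14. Endothelial-like cells had Cebpb at 2.33 and Egr2 at 1.97 called higher (4.43% of all genes) and Gadd45b at 0.659 called lower (2.47%), while Klf2 (1.12) and Klf4 (1.13) stayed within the 1.5-fold limits. The cochlear non-sensory epithelium-like class had 4 of 25 members called higher (6.38% of all genes) and 0 lower (2.70%): Klf2 at 1.97 (58.6 and 116 CPM), Nr4a1 at 1.86, Cebpb at 1.80 and Ccn1 at 1.64. Osteoblast or osteocyte-like cells had 6 of 25 called higher (5.16%), led by Nr4a1 at 2.57 (1.61 to 4.24), Cebpb at 2.40 and Klf4 at 1.63. The summed ratios of the last 2 classes were under 1 with doublets kept (0.930 and 0.953) or with the members among the clustering genes (0.921 and 0.930), so their direction changed with these settings. Cochlear non-sensory epithelium-like cells were at 0.977 with coarser clusters, and osteoblast or osteocyte-like cells at 0.976 when thinned to 1000 UMIs.

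**Figure D5:**
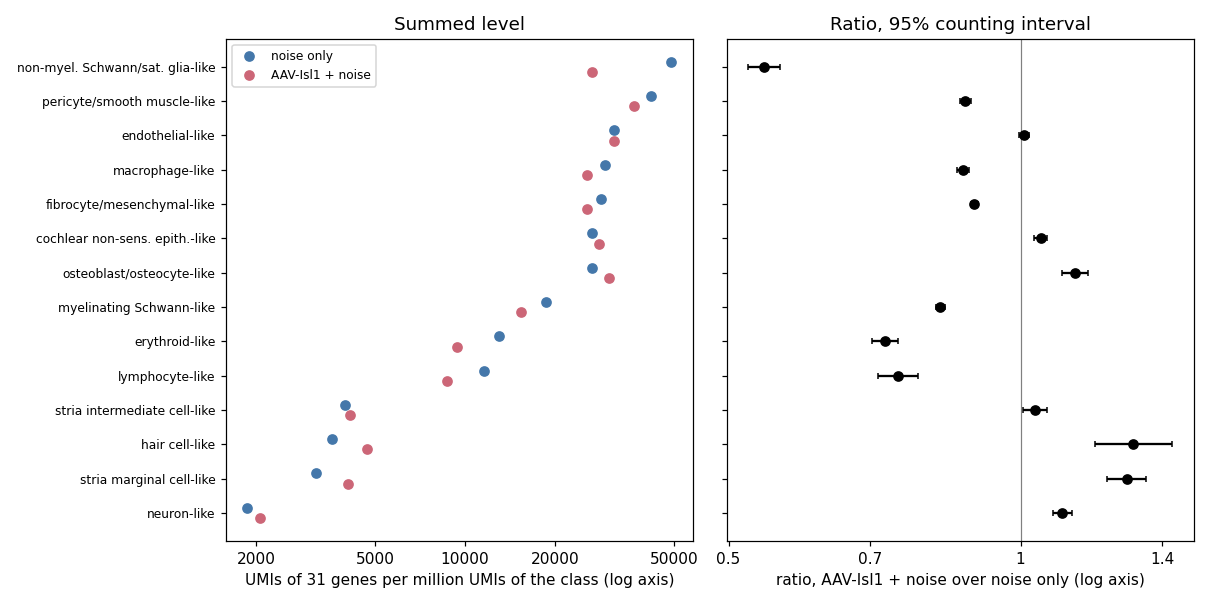
Left, summed CPM of all 31 genes in each class on a log axis, blue for noise_only and red for AAV_Isl1_noise. Right, the ratio of AAV_Isl1_noise over noise_only with its 95% counting interval on a log axis. The classes with the highest levels lie at or left of 1 apart from endothelial-like, cochlear non-sensory epithelium-like and osteoblast or osteocyte-like cells, and the 4 classes with the lowest levels lie right of 1.

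The 4 classes with no member above the erythroid level had low levels and summed ratios over 1. These were stria intermediate cell-like 1.03 (1.005 to 1.06), neuron-like 1.10, stria marginal cell-like 1.29 and hair cell-like 1.31 (1.19 to 1.43). A ratio over 1 was not particular to low levels, since cochlear non-sensory epithelium-like (1.05) and osteoblast or osteocyte-like cells (1.14) had one at high levels. Scaled to the median gene, stria intermediate cell-like cells were at 1.02 (0.996 to 1.05). Stria marginal cell-like cells had 7 of 23 measured members called higher (3.93% of all genes), among them Cebpb at 2.98 from 13 and 42 UMIs, Klf4 at 2.93 and Egr2 at 2.44. Hair cell-like cells had 5 of 12 called higher (3.01%) and 0 lower (3.11%). The top ratios were Zfp36 at 3.06 (1.30 to 8.76), Atf3 at 2.79 (1.38 to 6.38) and Dusp1 at 2.68 (1.20 to 7.02), and they rest on 6, 9 and 7 UMIs in noise_only. With coarser clusters (resolution 0.5) the ratio of Atf3 turned to 0.674 (0.467 to 0.983). Of the 63 Atf3 UMIs in AAV_Isl1_noise hair cell-like cells, 11 came from 1 cell, and they were found in 23 of 344 cells. Stria intermediate cell-like cells had 4 of 24 called higher (3.21%), led by Cebpb at 2.72, Egr2 at 2.49 and Klf2 at 1.80. Neuron-like cells had Cebpb at 1.81 and Nr4a1 at 1.55 called higher (2.66%) and 0 members called lower (0.414%). This class joins clusters 8 and 17, with summed ratios of 1.10 (1.07 to 1.13) and 1.03 (0.980 to 1.07). Cebpb was at 2.33 (1.68 to 3.26) in cluster 8 and at 1.20 (0.800 to 1.81) in cluster 17. Whether these ratios come from the cells' own message or from free RNA was not tested.

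Other measures moved along with the libraries. Myelinating Schwann-like cells were 33.0% of kept cells in noise_only and 19.2% in AAV_Isl1_noise, and lymphocyte-like, erythroid-like and hair cell-like cells were a larger share in AAV_Isl1_noise. Median UMIs per cell were lower in AAV_Isl1_noise in all 14 classes, from 10199 to 6512 in neuron-like cells and from 1294 to 1037 in endothelial-like cells. Counted per cell and not as CPM, member UMIs were lower in AAV_Isl1_noise in 13 of 14 classes, with stria marginal cell-like cells (7.92 and 8.04) as the exception. Ratios on the CPM scale therefore differ in direction between classes while UMIs per cell mostly do not. The part of depth, cell makeup and free RNA in these directions was not tested, and with 1 library per group a difference of treatment cannot be told apart from a difference of preparation.

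Seen by member, Cebpb had the most calls in 1 direction. It had a ratio above 1 in 12 of the 12 classes in which it had at least 50 UMIs, from 1.04 in erythroid-like to 2.98 in stria marginal cell-like cells, and was called higher in 9 of them and lower in 0. In the other two classes, with fewer UMIs, the ratio was 3.21 (non-myelinating glia-like, 13 and 20 UMIs) and 2.46 (hair cell-like, 6 and 37 UMIs). In macrophage-like cells, where its level was well above the erythroid level, it had 502 and 772 CPM. In pericyte or smooth muscle-like cells it had 536 and 791 CPM, a ratio of 1.48 (1.33 to 1.64) that missed the 1.5-fold limit. In 101 of 106 values computed under other processing, the ratio of Cebpb stayed above 1. Neutrophil-like cells, whose own Cebpb level was 235 and 431 CPM, numbered 24 in noise_only and 464 in AAV_Isl1_noise, and macrophage-like cells numbered 516 and 957. Whether free RNA from them adds to the Cebpb of other classes was not tested. Cebpb (chr2:167688915-167690418, plus strand) lies across from Tmem189 on the other strand, whose ratio ran from 0.936 to 1.53 over the classes.

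By contrast with Cebpb, most members had no single direction. Nr4a1 was called higher in 4 of 13 measured classes and lower in 0. Egr2 was called higher in 4 of 12, all of them classes in which it was scarce (at most 72.4 CPM), and lower in macrophage-like cells. Klf2 was divided, with 3 classes higher and 3 lower: cochlear non-sensory epithelium-like and both stria classes against lymphocyte-like, erythroid-like and non-myelinating glia-like cells. Jund had a ratio under 1 in 12 of 14 classes and Ier2 in 11 of 14, mostly by small amounts. Jund was called lower in non-myelinating glia-like cells alone and Ier2 in no class. Maff had a ratio under 1 in 6 of 6 measured classes. Fos, Jun and Egr1 had medians over the classes of 1.07, 1.02 and 1.04. Over all kept cells, where the makeup of cells enters, the summed ratio was 0.762 (0.759 to 0.765), 26 of 31 members were under 1, and 1 member was called in each direction: Dusp2 at 1.62 (5.45% of all genes called higher) and Ier3 at 0.663 (2.18% called lower).

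Clusters that the markers left unnamed carried members too, and 7 of them had at least 90 cells in each library. The highest summed level of any compared group was in a cluster led by Emilin2, Tnfaip6 and Otor, cluster 9, with 60258 CPM in noise_only and 53002 CPM in AAV_Isl1_noise, a ratio of 0.880. There Fos had 12165 and 11305 CPM, Junb 8728 and 6983 CPM and Egr1 7021 and 6206 CPM, and 0 of 25 measured members were called in either direction (4.80% of all genes called higher and 2.33% lower). A cluster led by Crhbp and Vmo1, cluster 13, lay on the other side of 1: its summed level was 24964 and 33724 CPM, a ratio of 1.35 (1.33 to 1.37), and all 24 measured members had a ratio above 1. Of these, 10 were called higher (6.66% of all genes) and 0 lower (3.96%). Atf3 had 1429 and 2186 CPM in it, Nr4a1 a ratio of 1.84 and Klf2 a ratio of 1.98. Member UMIs per cell were 64.0 and 74.6, so its higher level held per cell as well.

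In a cluster led by Mog and Klk6, cluster 27, the summed level was 5827 and 4037 CPM, a ratio of 0.693, with 3 of 9 measured members called lower (2.36% of all genes) and 0 higher (2.07%). In a cluster led by Ccl11, cluster 18, it was 35006 and 28178 CPM, with 2 of 24 called lower (2.44%) and 0 higher (4.00%). A cluster led by Ceacam10 and Igfbp6, cluster 12, had 5304 and 6525 CPM, with 7 of 24 called higher (2.53%) and 0 lower (1.35%). Cluster 5 had 19729 and 22845 CPM, with 3 of 25 called higher (6.36%) and 0 lower (2.59%), and cluster 11 had 1 of 25 called in each direction (2.18% of all genes higher and 1.55% lower). Cebpb had a ratio above 1 in all 7 of these clusters, from 1.37 to 5.47.

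Further genes of the same pathways were taken as lists, to be read beside the 4.46% of all gene and class pairs called higher and the 2.31% called lower. Of 33 other immediate and delayed early genes, 12 of 269 measured gene and class pairs were called higher (4.46% of the list's pairs) and 14 lower (5.20%). Id3, an inhibitor of helix-loop-helix factors, had the most UMIs, with 1029.5 and 758 CPM over all kept cells. Of 30 upstream and partner factors, 9 of 234 pairs were called higher (3.85%) and 5 lower (2.14%). Maf, the large relative of Maff, was called higher in 5 classes, with 34.9 and 114 CPM in endothelial-like cells. Of 19 further phosphatases and feedback inhibitors, 8 of 137 pairs were called higher (5.84%) and 4 lower (2.92%). Btg1 was called lower in lymphocyte-like cells at 0.616 and higher in stria marginal cell-like cells at 2.17. Of 12 heat shock genes, which also respond to tissue handling, 10 of 153 pairs were called higher (6.54%) and 2 lower (1.31%), and the most abundant, Hsp90ab1, had 1309.5 and 1361 CPM over all kept cells. In non-myelinating glia-like cells, where the members' summed ratio was lowest, the heat shock genes had a summed ratio above 1, at 1.23 (1.11 to 1.36). Of 9 measured there, Hspa8 was called higher and Hspa1a lower, and Hsp90ab1 was at a ratio of 1.45 (1.17 to 1.79).

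Of the 31 members, 8 overlap another gene of the files in the GENCODE vM21 annotation, namely Jun, Junb, Jund, Cebpb, Cebpd, Dusp1, Zfp36 and Ppp1r15a. Dusp1 is the only one with such a gene on its own strand. Whether counting used the strand is not given in the sources used here. In pooled cells of a class, fewer cells with a message and less message per cell cannot be told apart from a CPM alone.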

How the data were processed

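Single-cell 3′ RNA libraries of 2 groups, 1 library each, were analysed. Per the submitters' processing notes the tools were Cell Ranger 5.0, STAR and Seurat 3.2.2 with build mm10/GRCm38, and per the file headers the deposited matrices hold UMI counts from Cell Ranger 5.0.1. The labels were used as deposited by the authors, and no per-sample columns were left unused. Barcodes under 300 genes or over 20% mitochondrial UMIs were dropped, and Scrublet doublets (expected rate 0.06, score over 0.198 in both libraries, since the automatic threshold of the second library called 1) were removed, 1210 and 798 barcodes. Of the kept barcodes, 47.5% and 45.0% held under 1000 UMIs, and the lowest barcode total was 500 UMIs.

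Cells were clustered (2000 variable genes per library, 2978 in all, without the members and related early genes, 50 components, 15 neighbours, Leiden resolution 1) with scanpy 1.11.5 and leidenalg 0.10.2 on Python 3.11.15, numpy 2.4.6, scipy 1.17.1 and scikit-learn 1.9.0, and drawn with matplotlib 3.10.9. Classes were named from marker lists, and the naming rule was revised after the clusters were seen. Clusters mixing hemoglobin genes with another class's genes were left unnamed. UMIs were summed per class and library. Levels have exact Poisson intervals, shares exact Clopper-Pearson intervals and ratios exact conditional binomial intervals, all for counting error only. The members and lists were chosen with earlier results of these data known. Genes of the other lists were named from the 2 with the most UMIs of each list. Hspa8 and Hspa1a were exceptions, named because they were called in non-myelinating glia-like cells. Members were named by level, restriction and the most extreme called ratios in each class. Calls were checked on simulated counts. The alternatives are in the closing section.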

Additional observations from a re-analysis of the deposited data

How the results depend on the processing

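No paired analysis was possible because each group is 1 library. Not every setting gave every class: non-myelinating glia-like cells had no value with doublets kept or at resolution 0.5, and lymphocyte-like and osteoblast-like cells had none at resolution 0.5. Under these settings, the summed ratio changed its side of 1 in cochlear non-sensory epithelium-like (0.921 to 1.05) and osteoblast or osteocyte-like cells (0.930 to 1.16) alone. Split by depth, more classes turned. Under 1000 UMIs these were macrophage-like, pericyte-like, erythroid-like and stria intermediate-like cells (the last with 3207 and 2507 CPM). The other classes with both values kept their side there. At 2000 and more UMIs, endothelial-like (34126 and 32722 CPM) and cochlear epithelium-like cells (28088 and 23814 CPM) turned. When barcodes under 500 genes or over 10% mitochondrial UMIs were dropped, summed ratios were 0.764 in myelinating Schwann-like, 0.870 in fibrocyte-like, 1.01 in cochlear epithelium-like, 0.846 in macrophage-like, 0.842 in pericyte-like, 0.669 in erythroid-like, 1.01 in osteoblast-like and 0.517 in non-myelinating glia-like cells. With doublets kept they were 0.866 in fibrocyte-like, 1.03 in endothelial-like, 0.930 in cochlear epithelium-like, 0.813 in macrophage-like, 0.890 in pericyte-like, 0.669 in erythroid-like and 0.953 in osteoblast-like cells, 19 of 331 measured pairs in 13 classes were called lower, and Nr4a2 (1.27), Dusp1 (1.35) and Gadd45b (1.86) in lymphocyte-like and Btg2 (0.913) in osteoblast-like cells turned. Thinned to 1000 UMIs they were 0.800 in myelinating Schwann-like, 0.855 in fibrocyte-like, 1.12 in stria intermediate-like, 1.03 in endothelial-like, 0.788 in macrophage-like, 0.817 in pericyte-like, 0.833 in lymphocyte-like, 0.976 in osteoblast-like and 0.654 in non-myelinating glia-like cells, with 20 pairs called higher. Cebpd (0.976) and Btg2 (0.971) in osteoblast-like and Atf3 (1.16), Klf2 (1.09) and Ccn1 (1.45) in non-myelinating glia-like cells turned there. Without mitochondrial and hemoglobin UMIs erythroid-like cells were at 0.682. Scaling by the median gene gave 0.906 in fibrocyte-like, 1.02 in endothelial-like, 0.802 in lymphocyte-like and 0.689 in erythroid-like cells, and moved the median of all genes by over 0.1 on the log2 scale in lymphocyte-like cells alone (-0.10). Without the 5 cells highest in members, lymphocyte-like cells were at 0.813, erythroid-like at 0.755, stria marginal-like at 1.402, hair cell-like at 1.499, and Nr4a2 in lymphocyte-like cells at 1.20. With the members among the clustering genes the ratios were 0.925 in fibrocyte-like, 0.921 in cochlear epithelium-like, 0.895 in macrophage-like, 0.817 in lymphocyte-like, 1.43 in stria marginal-like, 0.930 in osteoblast-like, 0.607 in non-myelinating glia-like and 1.16 in hair cell-like cells, and Btg2 in osteoblast-like cells was at 0.872. At resolution 0.5 they were 0.914 in fibrocyte-like, 0.977 in cochlear epithelium-like, 0.885 in macrophage-like, 1.23 in neuron-like, 0.697 in erythroid-like and 1.36 in stria marginal-like cells, 13 of 283 measured pairs in 11 classes were called lower, and Atf3 in hair cell-like cells was at 0.674. The classes missing from these counts include non-myelinating glia-like cells, with 13 of the 36 lower calls, and at resolution 0.5 also lymphocyte-like cells, with 8. A 2-fold limit left 13 pairs called higher and 7 lower. Without shared barcodes, chosen after seeing the data, lymphocyte-like cells were at 0.793. Restriction at 8 times the median left 4 pairs. The share of cells with at least 2 core genes was 69.4% and 65.4%, and with 3 but no thinning 62.5% and 63.5%. The cause of these changes was not tested. Of the 73 called pairs, thinning left 36 with the same call and keeping doublets 34 of the 60 it could measure. Depth limits the scarce members most, since 350 of 434 pairs reached 50 UMIs.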
